A study of Mus musculus with 6 samples.

Results

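Tnf, lymphotoxin alpha and lymphotoxin beta, with the 3 receptors they bind, were followed in embryonic mammary buds that had been exposed to the Tnf-like protein Eda. The 6 genes were chosen by name, as 3 ligands (Tnf, Lta and Ltb) and 3 receptors (Tnfrsf1a, Tnfrsf1b and Ltbr), and each had 1 of the 25949 probe sets of the array, so that all 6 were measured. All samples were epithelial mammary buds of Eda-/- mouse embryos at E13.5 on a B6CBA background, freed by hand of most of the mesenchyme around them. Since both groups carry the Eda-/- genotype, neither makes its own Eda. Control buds received no Fc-Eda-A1, and treated buds received recombinant Fc-Eda-A1 (hereafter Fc-Eda) at 250 ng/mL, each for 4 h. Each group had 3 biological replicates, from 3 litters, and 1 replicate is, by the sample labels, a pool of about 20 buds from 5 to 6 embryos, where the paper's methods state somewhat smaller pools from fewer embryos. The buds of an embryo were divided between the groups, so that the 6 arrays form 3 pairs. The arrays were Affymetrix Mouse Exon 1.0 ST, which probe transcripts along their exons, and every value is a log2 signal. The deposited rows carry Ensembl identifiers without gene names, so the tissue could not be checked here against epithelial, mesenchymal or blood cell markers.

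Tnf is a cytokine best known from macrophages, made as a membrane protein and released by cleavage. Lta is a secreted relative of Tnf, and Ltb is a membrane protein that joins Lta in a mixed trimer. Tnfrsf1a, found on most cell types, and Tnfrsf1b, found mainly on blood and endothelial cells, bind Tnf and the trimer made of Lta alone, whereas Ltbr binds the mixed trimer of Lta and Ltb. Eda belongs to the same ligand superfamily and acts through its own receptor Edar, which activates the transcription factor NF-κB. The Tnf gene is itself a well known NF-κB target in immune cells. The comparison asks which of these genes responded in the bud within hours of Eda exposure.

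In the RefSeq gene order of mouse assembly GRCm38.p6, Ltb, Tnf and Lta follow each other on chromosome 17 with no other protein-coding gene between them. Tnfrsf1a and Ltbr lie on chromosome 6 with Scnn1a between them, and Tnfrsf1b lies on chromosome 4. The windows around the start sites of the 3 ligand genes are printed because 2 of these neighbours were higher after Fc-Eda and the third was not. Each window holds 250 bases before and 50 bases after the RefSeq start site, on the strand of the gene and in build GRCm38.p6. Capitals mark matches to the κB consensus, the sequence that NF-κB dimers bind, and to TATAAA, the core of a TATA box, both searched on either strand. The window of Tnf is chr17:35201958-35202257 on the minus strand, that of Lta chr17:35205302-35205601 on the minus strand and that of Ltb chr17:35194257-35194556 on the plus strand.

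Tnf: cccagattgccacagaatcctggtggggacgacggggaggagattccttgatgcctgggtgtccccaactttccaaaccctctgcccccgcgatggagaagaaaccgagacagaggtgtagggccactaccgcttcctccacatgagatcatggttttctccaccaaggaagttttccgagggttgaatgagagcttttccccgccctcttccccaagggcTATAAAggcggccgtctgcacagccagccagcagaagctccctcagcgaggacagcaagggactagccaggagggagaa
Lta: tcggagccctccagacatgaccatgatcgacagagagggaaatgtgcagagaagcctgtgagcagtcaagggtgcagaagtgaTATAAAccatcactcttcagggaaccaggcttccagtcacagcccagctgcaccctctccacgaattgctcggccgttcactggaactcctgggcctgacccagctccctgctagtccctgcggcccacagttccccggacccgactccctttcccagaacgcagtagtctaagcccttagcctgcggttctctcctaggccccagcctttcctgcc
Ltb: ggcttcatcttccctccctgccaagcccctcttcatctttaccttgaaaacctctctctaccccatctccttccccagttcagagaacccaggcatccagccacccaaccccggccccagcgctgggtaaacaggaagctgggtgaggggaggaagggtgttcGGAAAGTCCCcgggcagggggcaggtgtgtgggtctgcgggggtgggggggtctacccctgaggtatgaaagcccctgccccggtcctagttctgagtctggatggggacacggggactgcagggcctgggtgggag

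The Ltb window held the only κB consensus match of the 6 genes, GGAAAGTCCC as read on the strand of the gene, from -87 to -78 relative to the start site. The Tnf window held TATAAA from -29 to -24, and the Lta window held it farther from the start, from -167 to -162. The windows of the 3 receptors held neither. Of 32851 RefSeq windows of the same length, 8.46% held a κB consensus match and 13.6% held TATAAA. A match describes letters, and a window without one says nothing of the factor or of sites elsewhere in the gene.

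The 6 arrays differed in scale. The array of control 1 had a median of 4.99 and the other 5 had medians of 4.80 to 4.83, and its correlation with the others across probe sets was 0.985 to 0.987, against 0.989 to 0.994 among them. Pair 1 therefore carries a shift of its own, with a median difference between Fc-Eda and control of -0.074 over all probe sets, against 0.00048 in pair 2 and 0.0085 in pair 3. Results are given with and without pair 1 where it changed them. The upper quartile lay between 6.34 and 6.41 on all arrays. Levels of different genes are not ranked against each other, because probe sets differ in how strongly they bind, and the position of a value within its array is given only to show how bright the signal was.

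Among the ligands, Tnf (probe set ENSMUSG00000024401_at) was higher after Fc-Eda in every pair. Its log2 value was 4.58, 5.53 and 5.14 in control buds 1 to 3 and 7.18, 7.24 and 7.59 in the Fc-Eda buds of the same pairs. The lowest Fc-Eda value lay 1.65 above the highest control value, and the Fc-Eda values lay above the upper quartile of each array, whereas the control values lay on either side of the array medians. The mean was 5.08 ± 0.48 (SD, n = 3) in control buds and 7.33 ± 0.22 in Fc-Eda buds. The differences in pairs 1 to 3 were 2.60, 1.71 and 2.45 on the log2 scale, a mean of 2.25 with a standard error of 0.19, or 4.77-fold (95% interval of limma, 3.42 to 6.64). Standard errors here and below are, unless stated, those of limma, which borrows variance from all probe sets. From the 3 pair differences alone the standard error of Tnf was 0.28. Pair 2 had both the highest control value and the smallest difference. The mean difference of Tnf was the highest of the 25949 probe sets, which was known when the genes were chosen and is given as a description.

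Ltb (ENSMUSG00000024399_at), which anchors the lymphotoxin trimer in the membrane, was also higher in every pair, by a smaller amount. Its log2 value was 4.71, 5.01 and 4.58 in control buds and 6.04, 6.26 and 5.55 in Fc-Eda buds. The groups did not overlap, and the lowest Fc-Eda value lay 0.53 above the highest control value. The mean was 4.77 ± 0.22 (SD, n = 3) in control buds and 5.95 ± 0.37 in Fc-Eda buds. The differences in pairs 1 to 3 were 1.33, 1.25 and 0.96, a mean of 1.18 with a standard error of 0.11, or 2.27-fold (95% interval of limma, 1.89 to 2.73). By this mean difference Ltb stood at rank 16 of all probe sets.

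Lta (ENSMUSG00000024402_at), the ligand gene on the other side of Tnf from Ltb, did not follow them. Its log2 value was 4.33, 3.99 and 3.87 in control buds and 3.91, 4.36 and 3.81 in Fc-Eda buds, all between the lower quartile and the median of the array. The groups overlapped, and the differences of -0.42, 0.37 and -0.06 had no common sign. The mean difference was -0.04 with a standard error of 0.16, and its 95% interval in limma ran from -0.45 to 0.38, or 0.73-fold to 1.30-fold, which leaves out a difference of the size seen in Ltb. The sign of this mean depended on the scaling and was positive, at 0.036, 0.020 and 0.048, after quantile normalization, centring and cyclic loess. Without pair 1 it was 0.15.

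**Figure D1:**
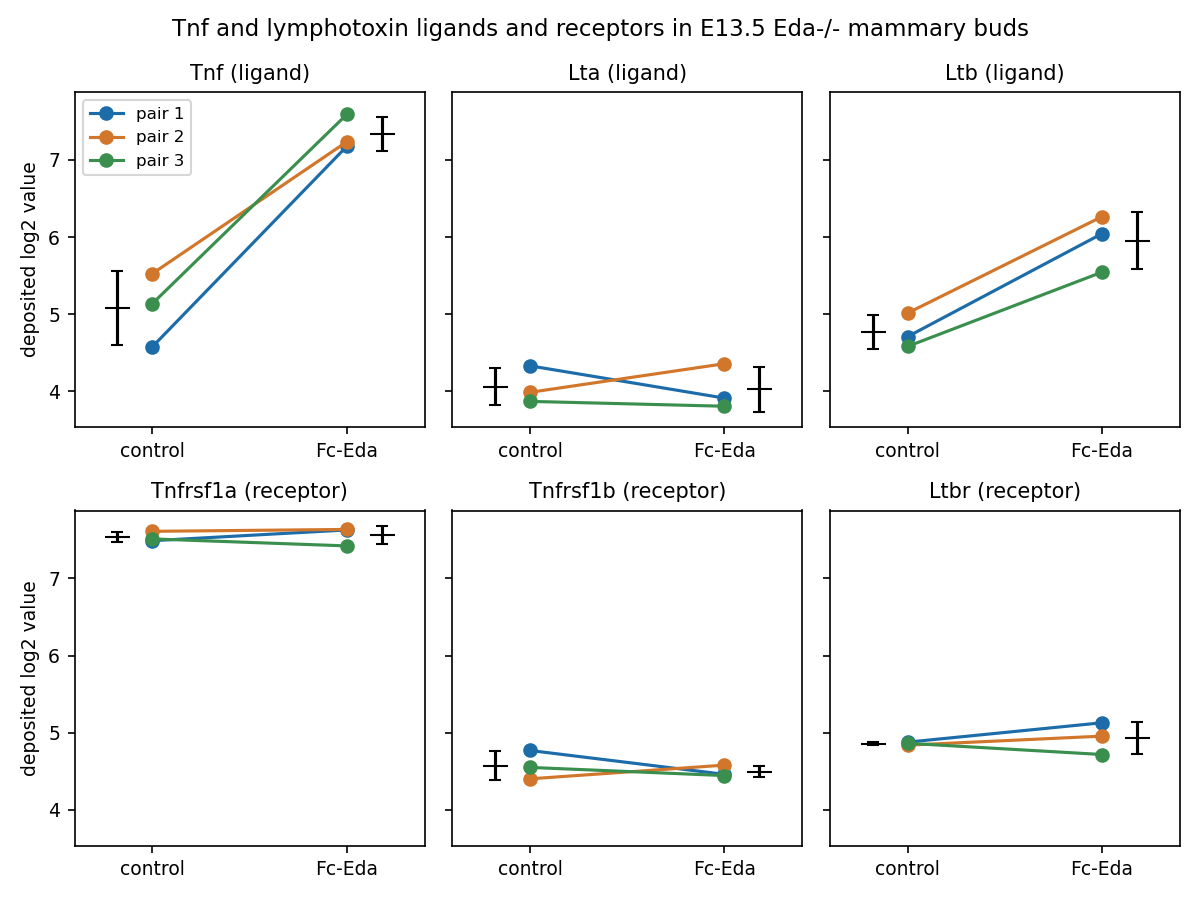
Deposited log2 value of the 3 ligands (top) and 3 receptors (bottom) in control and Fc-Eda buds, with a line for each of the 3 pairs and, in black beside them, the mean ± SD of the 3 arrays. Tnf and Ltb were higher after Fc-Eda in all 3 pairs without overlap between groups, whereas the groups of Lta and of each receptor overlapped.

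The receptors showed no difference of that size. Tnfrsf1a (ENSMUSG00000030341_at), the receptor through which Tnf signals in most cells, had log2 values of 7.49, 7.61 and 7.51 in control buds and 7.63, 7.63 and 7.42 in Fc-Eda buds. All 6 values lay above the upper quartile of their arrays, and the groups overlapped. The differences were 0.14, 0.02 and -0.09, and the mean of 0.02 had a standard error of 0.09 and a 95% interval from -0.20 to 0.25.

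Tnfrsf1b (ENSMUSG00000028599_at), the second Tnf receptor, had log2 values of 4.77, 4.40 and 4.55 in control buds and 4.46, 4.58 and 4.44 in Fc-Eda buds, below the median of each array. The highest and the lowest of the 6 values were both in control buds. The differences were -0.31, 0.18 and -0.11, with a mean of -0.08, a standard error of 0.12 and a 95% interval from -0.38 to 0.22.

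Ltbr (ENSMUSG00000030339_at), the receptor of the mixed lymphotoxin trimer, had log2 values of 4.88, 4.84 and 4.86 in control buds, a spread of 0.02 (SD, n = 3). In Fc-Eda buds the values were 5.13, 4.96 and 4.72, with an SD of 0.21, on both sides of the control values. The differences were 0.25, 0.12 and -0.15, with a mean of 0.07, a standard error of 0.11 and a 95% interval from -0.20 to 0.35. In pair 2 all 3 receptors were higher after Fc-Eda and in pair 3 all 3 were lower. The sign of the mean changed for Tnfrsf1a under quantile normalization and cyclic loess, and for each of the 3 receptors without pair 1.

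Set beside each other, the smallest pair difference of Tnf, 1.71, and that of Ltb, 0.96, both lay above the pair differences of the receptors, which ran from -0.31 to 0.25. Of the 9 pair differences of the ligands 7 were above 0, and of the 9 of the receptors 5 were, against 47.8% of those of all probe sets. The median of the 3 mean differences was 1.18 for the ligands and 0.02 for the receptors, and the median over all probe sets was -0.02. Of the 3 ligands 2, and of the receptors none, differed in the same direction in all 3 pairs, where 28.5% of all probe sets did. In bulk RNA, more cells that express a gene cannot be told apart from more RNA of it per cell.

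**Figure D2:**
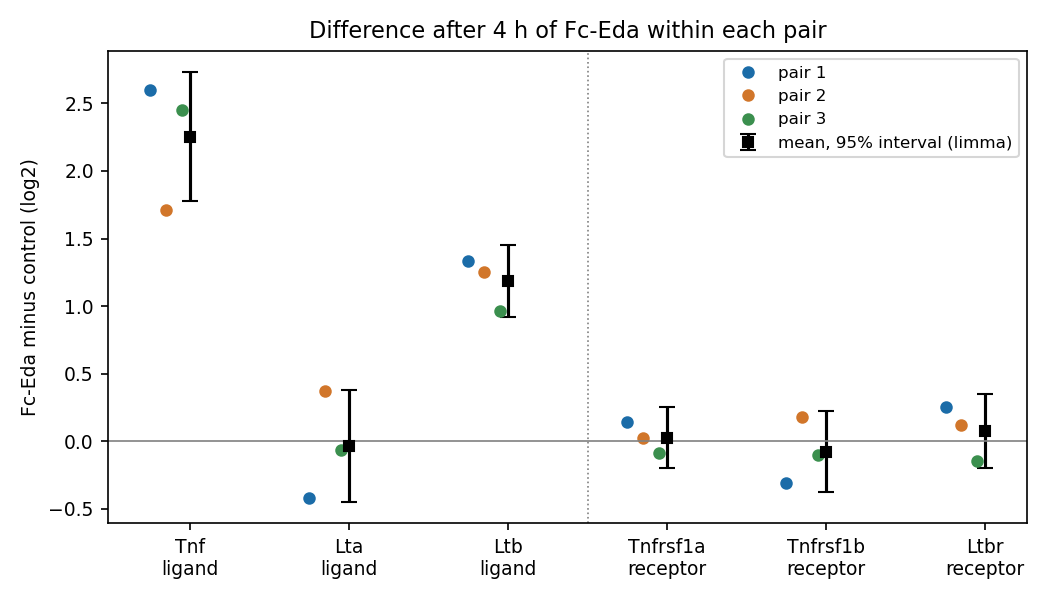
Fc-Eda minus control on the log2 scale for each gene, with coloured points for the 3 pairs and a black square with a bar for the mean and its 95% interval in limma. The intervals of Tnf, 1.77 to 2.73, and Ltb, 0.92 to 1.45, lay above those of Lta and the 3 receptors, all of which included 0. These intervals use variance borrowed from all probe sets, and intervals from the 3 pairs alone were not drawn.

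Within the ligands, the difference of Tnf exceeded that of Ltb by 1.26, 0.46 and 1.49 in pairs 1 to 3, a mean of 1.07 ± 0.54 (SD, n = 3). It exceeded that of Lta by 2.29 ± 0.86, and the difference of Ltb exceeded that of Lta by 1.22 ± 0.47, each in 3 of 3 pairs. An exact two-sided sign-flip permutation test over 3 pairs cannot go below p = 0.25, and each of these 3 comparisons reached that value, also after Benjamini-Hochberg adjustment over the 3. Signal from different probe sets need not scale alike with RNA, which limits comparisons of their differences.

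In the limma fit over all probe sets with the pairs as a block, none of the 6 genes passed a q-value of 0.05, and neither did any other probe set (0% called). Tnf had q = 0.113 and Ltb q = 0.131, the smallest q of all probe sets being 0.10. Lta had q = 0.832 and the receptors q = 0.781 to 0.828. Before adjustment, at a p under 0.05 in that fit, 2 of the 6 genes were higher, Tnf at rank 11 and Ltb at rank 13 of all p-values, where 2.73% of all probe sets were higher at that level. The same 2 genes were those whose Fc-Eda values all lay above their control values, which held for 3.98% of all probe sets, and none of the 6 had all Fc-Eda values below the control values, as 5.11% of all probe sets did. An exact two-sided sign-flip permutation of the 3 pairs gave p = 0.25, the smallest it can give, for Tnf and Ltb, and p = 0.75 for each of the other 4.

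The study's methods also name IBMT, in which the expected variance follows the signal level, and Cyber-T, which takes it from probe sets of similar level. In IBMT, Tnf (q = 0.0053) and Ltb (q = 0.012) passed the threshold, as did 0.339% of all probe sets in the same direction. Both also passed in a test of the Cyber-T type, with q = 3.14e-05 for Tnf and q = 0.00038 for Ltb, where 0.624% of all probe sets were called higher. Lta and the receptors passed in neither, with q of 0.806 to 0.849 in IBMT and 0.925 to 0.943 in the Cyber-T type test. Without pair 1 the mean difference was 2.08 for Tnf and 1.11 for Ltb, and q was 0.435 in limma, 0.192 in IBMT and 3.51e-05 and 0.0014 in the Cyber-T type test for the 2 genes.

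The spread between pairs was not alike for the 6 genes. The SD of the 3 pair differences was 0.48 for Tnf, above that of 93.6% of all probe sets, and the probe sets nearest to it in level had a mean SD of 0.15. For Ltb the SD was 0.19 and its neighbours in level had 0.17. Lta varied by 0.40 between pairs, with 0.26 in its neighbours. The receptors were close to theirs, with 0.11 against 0.12 for Tnfrsf1a, 0.24 against 0.24 for Tnfrsf1b and 0.20 against 0.23 for Ltbr.

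**Figure D3:**
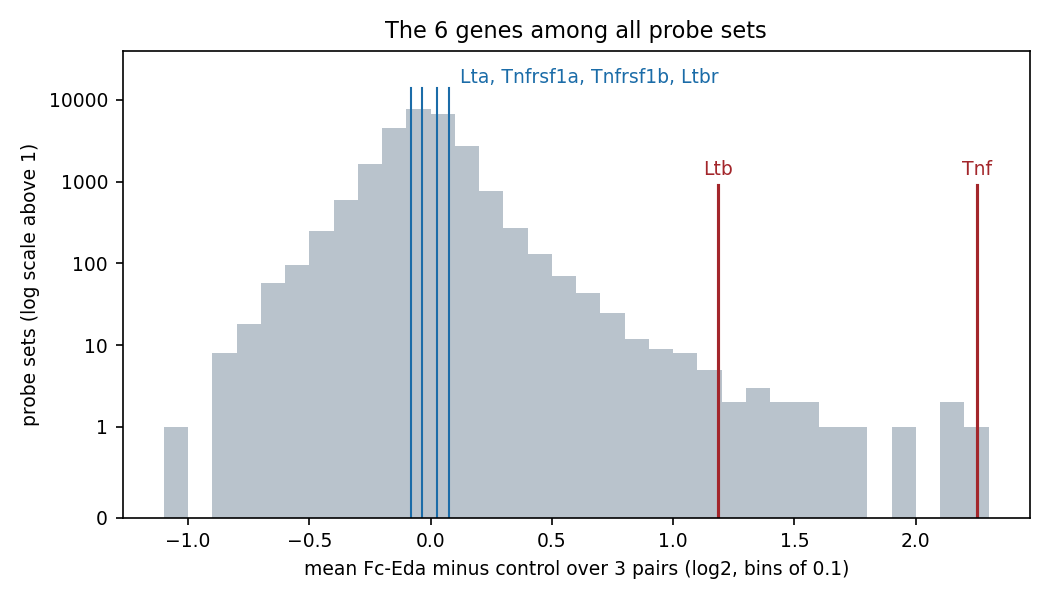
Number of probe sets by mean difference between Fc-Eda and control over the 3 pairs, in bins of 0.1 on the log2 scale, with a vertical axis that is logarithmic above 1. Tnf at 2.25 and Ltb at 1.18 (red lines) stand in the thin right tail, and Lta and the 3 receptors (blue lines, -0.08 to 0.07) in the centre.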

How the data were processed

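Expression was measured in 6 samples, 3 control and 3 Fc-Eda, grouped and numbered by the sample titles. The dose is from the paper's methods. The table that the authors deposited holds a log2 value for each array and Ensembl gene identifier. The submitters' processing notes name RMA, and the probe set definition and genome build are not given in the sources used here. No detection call was used, and 3 arrays a group limit the precision.

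Treatment was tested over all 25949 probe sets with limma 3.58.1 (R 4.3.3), the replicate number as a block, default moderation and Storey q-values (spline with 3 degrees of freedom, lambda 0.05 to 0.95 in steps of 0.05) at a threshold of 0.05. The pairing comes from the divided embryos of the labels, and deviations within a pair correlated with r = 0.079, 0.29 and 0.29. IBMT (loess span 0.75) and the Cyber-T type test (window 101, prior weight 10) were written out, and defaults of the original programs may differ. The 3 tests were run on simulated data only to check the code. The simulated noise depended on signal level alone and no array was shifted, so the run does not show how the tests perform on these arrays.

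The 6 genes, gene lists and tests were chosen with earlier results of these data known. The rule named every member, list genes past a threshold and genes with patterns like a member's. The reference tables pair 0 of the identifiers with symbols, so the 121 genes of the fixed pathway and marker lists were not analysed here, and probe sets with patterns like a member's are not given. No value column was left unmapped. Promoter windows came from RefSeq, all 6 genes matching. Alternatives were no block, the other tests, Benjamini-Hochberg adjustment, filters on level, quantile normalization, centring, cyclic loess and leaving out each pair. IBMT and the Cyber-T type test without a pair were chosen after seeing the data.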

Additional observations from a re-analysis of the deposited data

How the results depend on the processing

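Tnf and Ltb were higher after Fc-Eda in all of 16 alternatives each. In limma, Tnf ranged from 2.08 to 2.53 and Ltb from 1.11 to 1.29 with each pair left out in turn. Tnf passed the threshold in 9 of the 16 alternatives and Ltb in 8, and not all of these passes are separate support. With all pairs, both passed at unchanged differences of 2.25 and 1.18 in IBMT, in the Cyber-T type test, by the rule of at least 1 of these tests, in limma with trend and robust moderation, in the methods' t-test unadjusted and among probe sets brighter than the median, and at 2.31 and 1.24 after centring. By its control arrays alone Ltb lies at percentile 48.2, so it is kept by the filter on brightness only through its Fc-Eda values, and its pass there is no support. Passing in IBMT and the Cyber-T type test already met the rule of at least 1 test. The unadjusted t-test set a raw p against 0.05. Neither adds separate support. Left-out pairs in limma gave Tnf q = 0.435, 0.0146 and 0.0311 without pairs 1, 2 and 3, and Ltb q = 0.435, 0.219 and 0.0386. When IBMT and the test of the Cyber-T type were run without 1 pair, a choice made after seeing the data, both genes passed in 5 of 6 fits, at 2.08 to 2.53 for Tnf (2.15 without pair 3) and 1.11 to 1.29 for Ltb (1.15 without pair 2), and failed in IBMT without pair 1. In the fit with no replicate block, q was 0.053 for Tnf and 0.21 for Ltb. With all pairs, both also failed after quantile normalization (q = 0.188 each) and cyclic loess (q = 0.160 each). They failed with Benjamini-Hochberg adjustment in limma, at 0.133 for Tnf and 0.153 for Ltb, and in the methods' t-test, at 0.819 each. Among probe sets above the 25th percentile of level, limma gave q = 0.063 for Tnf and 0.068 for Ltb.

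The other 4 genes passed in no alternative, and their signs were not stable. Lta turned to 0.036, 0.020 and 0.048 after quantile normalization, centring and cyclic loess and ranged from -0.24 to 0.15 with a pair left out. Tnfrsf1a turned to -0.023 and -0.019 after quantile normalization and cyclic loess and ranged from -0.033 to 0.082. Tnfrsf1b ranged from -0.21 to 0.036 and Ltbr from -0.014 to 0.18. Lta and Tnfrsf1b are dimmer than the median probe set and have no value under that filter.

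Over all probe sets, limma called 0 higher and 0 lower, with 708 and 864 at an unadjusted p under 0.05. Calls higher and lower were 3 and 0 with no replicate block, 88 and 6 in IBMT, 162 and 31 in the Cyber-T type test as well as by the rule of at least 1 test, 90 and 6 with an intensity trend and robust moderation together, 85 and 6 among probe sets brighter than the median, and 56 and 1 after centring. They were 802 and 696 in the methods' t-test, and 0 and 1 once it was adjusted. Limma called 0 and 0 with Benjamini-Hochberg adjustment, after quantile normalization, after cyclic loess and among probe sets above the 25th percentile of level. The rule of at least 1 test is that of the paper, which reports more probes in each direction than were called by it here. With a pair left out, limma gave 0 to 10 higher and 0 to 1 lower. Without pairs 1, 2 and 3, IBMT gave 0 and 0, 159 and 58, and 256 and 269. In the same order, the test of the Cyber-T type gave 337 and 175, 82 and 8, and 78 and 25. IBMT without pair 3 had an infinite prior, so that the variance of the gene itself no longer counted. The cause of these moves was not tested. Signal over background is unknown, so whether dim values lie at background was not judged. Counts in the fixed pathway lists were not run, because their genes could not be matched.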
